A study of Mus musculus with 10 samples.

Results

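Ganglion cells are the output neurons of the retina, whose axons form the optic nerve, and 10 genes were taken up here as their markers or as neurofilament genes: Sncg, Rbpms, Thy1, Nefl, Nefm, Nefh, Pou4f1, Pou4f2, Isl2 and Ebf1. A probe was counted as a member when the platform annotation gave it 1 of these symbols and no other. This left 8 genes, each with 1 probe, among 33012 probes and 13840 named genes. No probe with a single symbol of Pou4f1 or Pou4f2 was found, so these ganglion cell transcription factors are not analysed here.

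The series compared microarray platforms on a pair of mouse RNAs and served to measure how far repeat arrays of one RNA vary. On this Applied Biosystems platform, 5 single-channel arrays carried RNA from retina of adult C57/B6 mice (a pool of 350 animals, age in days not given) and 5 carried RNA from cortex of mice at postnatal day 1 (a pool of 19). No treatment or engineered allele is named for either pool. The cortex mice are C57/B6 in the sample descriptions and Swiss-Webster in the series text, a conflict not settled here, and the array titles of the retina carry the letters MRP1, whose meaning is not given. Arrays of a tissue are repeats of 1 pool, so every p-value below measures the spread between arrays and not between animals. Tissue, age and possibly strain cannot be told apart. In a tissue extract, more cells of a type and more RNA per cell cannot be told apart either.

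Neurofilaments are the intermediate filaments of mature axons. They are built from a light (Nefl), a medium (Nefm) and a heavy (Nefh) subunit, often together with alpha-internexin (Ina), and in development Nefh appears later than the others. Ganglion cells send long axons and are rich in neurofilament, but many projection neurons of the cortex use the same subunits, as do horizontal cells of the retina. Thy1 and the neurofilament genes are therefore not private to ganglion cells, whereas Sncg, Rbpms and Isl2 are used more narrowly as ganglion cell markers within the retina.

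Defining genes of each tissue went with the labels. All 12 measured retina markers were higher in retina, with a median difference of 9.48 log2 units, and all 9 measured cortex markers were lower, with a median of -4.30. Array medians of the deposited intensities lay between 836 and 987 for retina and between 1255 and 1341 for cortex. The values below were quantile-normalized on the log2 scale. Without that step the median of all probes stood at -0.41 (retina minus cortex), against -0.01 with it, so small differences depend on the scaling. As a yardstick for dim signal, the 95th percentile of 747 probes named for olfactory receptors was 10.74, since no detection calls were used. No member lay below that line in retina, and 3 (Sncg, Isl2 and Rbpms) did in cortex.

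Of the 8 measured genes, 5 were higher in retina, none was lower, and 3 did not reach the minimum difference. A call needed an adjusted p below 0.05 in limma (Benjamini-Hochberg, over all probes) and a change of 2-fold or more. Across all probes this rule called 25.4%, with 12.1% higher and 13.3% lower in retina. Sncg, Isl2, Nefh, Rbpms and Nefl were the 5, and Nefm, Thy1 and Ebf1 the 3. By adjusted p alone all 8 passed, as did 47.6% of all probes. All 8 normalized differences were above 0, so no test of these values could find a member lower in retina. Without normalization Ebf1 was at -0.10. The median difference of the 8 was 1.81, against -0.01 over all probes. In all 8 the retina arrays lay above the cortex arrays after normalization, where 40.5% of all probes had no overlap in 1 direction or the other. On the deposited values this held for 6 of the 8, with Thy1 and Ebf1 overlapping, against 42.8% of all probes.

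**Figure D1:**
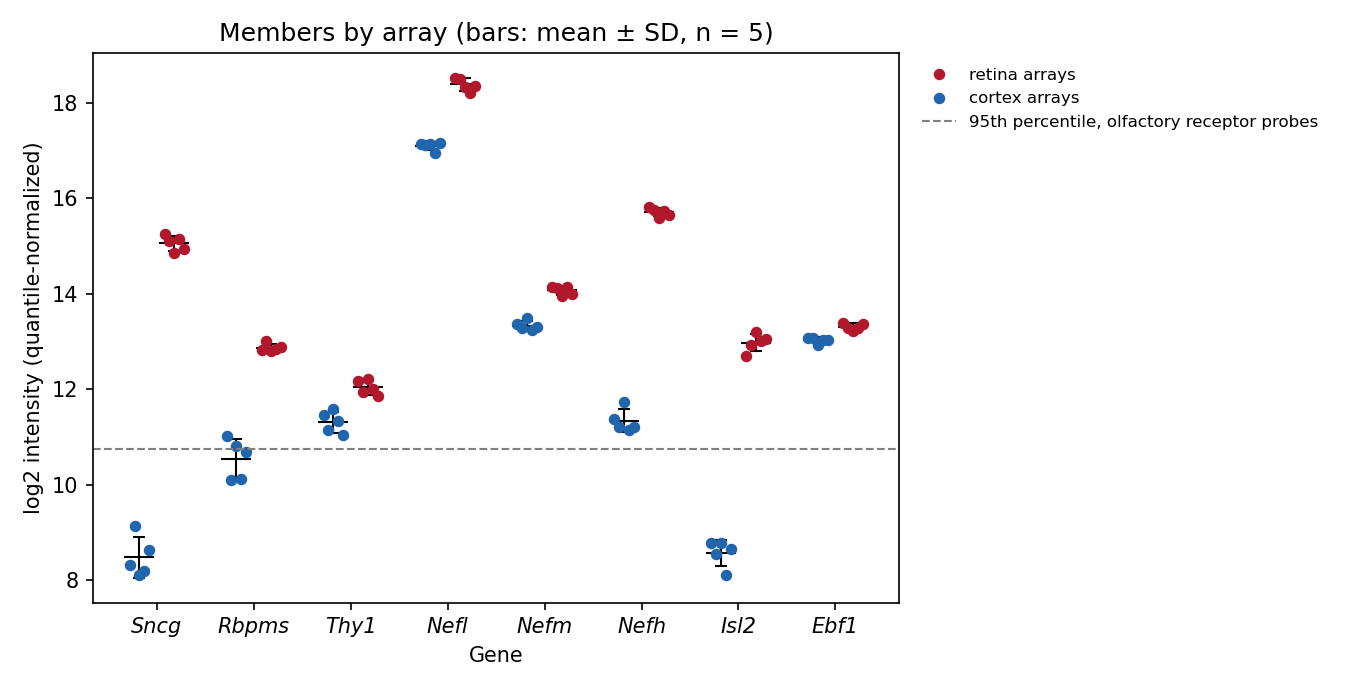
Quantile-normalized log2 intensity (vertical axis) of the 8 genes (horizontal axis) on each retina array (red) and cortex array (blue), with mean ± SD over 5 arrays; the dashed line at 10.74 is the olfactory receptor line. The 5 retina points lie above the 5 cortex points for every gene, although Thy1 and Ebf1 overlap on the deposited values; heights of different genes are not comparable, because each is read by its own probe.

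The neurofilament subunit genes differed between the tissues to very unequal degrees. The heavy subunit gene Nefh (probe 590229) stood at 15.82, 15.76, 15.59, 15.74 and 15.66 on the retina arrays and at 11.38, 11.22, 11.74, 11.15 and 11.22 on the cortex arrays. Every retina array was far above every cortex array, and the widest gap between arrays of a tissue was 0.59 in cortex. The difference was 4.37 (SE 0.095, 95% interval 4.17 to 4.57, a 20.7-fold difference, limma, adjusted p = 3.92e-16), which ranked 282 among the 33012 probes toward retina. In deposited units the 5 retina values ran from 42454 to 52421 and the 5 cortex values from 2618 to 4046.

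The light subunit gene Nefl (probe 827260), on which assembly of the other subunits depends, stood at 18.52, 18.50, 18.34, 18.21 and 18.35 on the retina arrays. On the cortex arrays it stood at 17.14, 17.11, 17.13, 16.94 and 17.15. The tissues did not overlap, and the fourth cortex array was the lowest of its group. The difference was 1.29 (SE 0.064, limma, adjusted p = 1.69e-11), a 2.45-fold difference. Without normalization it was 0.77, under the 2-fold minimum, although the deposited intensities still separated, at 262490 to 292189 in retina and 141268 to 174015 in cortex.

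Nefm (probe 423277), the medium subunit gene, was at 14.14, 14.13, 13.95, 14.15 and 13.99 in retina and at 13.37, 13.28, 13.49, 13.24 and 13.30 in cortex. The groups were separate but close. The difference of 0.74 (SE 0.064, 95% interval 0.60 to 0.87, limma, adjusted p = 3.05e-08) passed the test and not the 2-fold minimum. Without normalization it was 0.35 (limma, adjusted p = 0.00156). In the RefSeq gene table (GRCm38.p6) Nefl and Nefm are next to each other on chromosome 14, whereas Nefh is on chromosome 11.

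Ratios between related genes within an array do not depend on a scaling of whole arrays and show directly whether the tissues changed them unequally. Only the shift of such a ratio between tissues can be read, since the probes of a pair differ in brightness for other reasons. Of 10 listed pairs 7 were measured, and each was tested on the deposited log2 intensities with an exact 2-sided permutation test that reassigned the arrays. All 7 shifted, each with exact permutation p = 0.00794, the smallest this design can give, and the same value after Benjamini-Hochberg adjustment over the 7.

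The ratio of Nefh to Nefl was -2.59, -2.62, -2.63, -2.40 and -2.57 on the retina arrays and -5.71, -5.87, -5.43, -5.75 and -5.87 on the cortex arrays, in log2 units. The shift toward the heavy subunit gene in retina was 3.17, an 8.97-fold change of the ratio (exact permutation p = 0.00794). For Nefh over Nefm the ratio was 1.64 ± 0.03 in retina against -1.95 ± 0.13 in cortex (SD, n = 5), a shift of 3.59 or 12-fold. The neighbours Nefm and Nefl were the most alike, with a ratio of -4.20 ± 0.11 in retina against -3.78 ± 0.07 in cortex. Their shift of -0.42 was small, and no array of 1 tissue crossed into the range of the other.

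Ina, the alpha-internexin gene of early neurons, went the other way from Nefl. It was at 16.27 ± 0.07 in retina against 17.46 ± 0.06 in cortex (SD, n = 5), differing by -1.19 (SE 0.049, limma, adjusted p = 1.53e-12). The ratio of Nefl to Ina was 2.04, 2.05, 2.00, 1.92 and 1.97 on the retina arrays and -0.42, -0.34, -0.37, -0.45 and -0.26 on the cortex arrays. The shift of 2.37 made a 5.15-fold change of this ratio. Arrays of a tissue differed by far less than the tissues did.

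**Figure D2:**
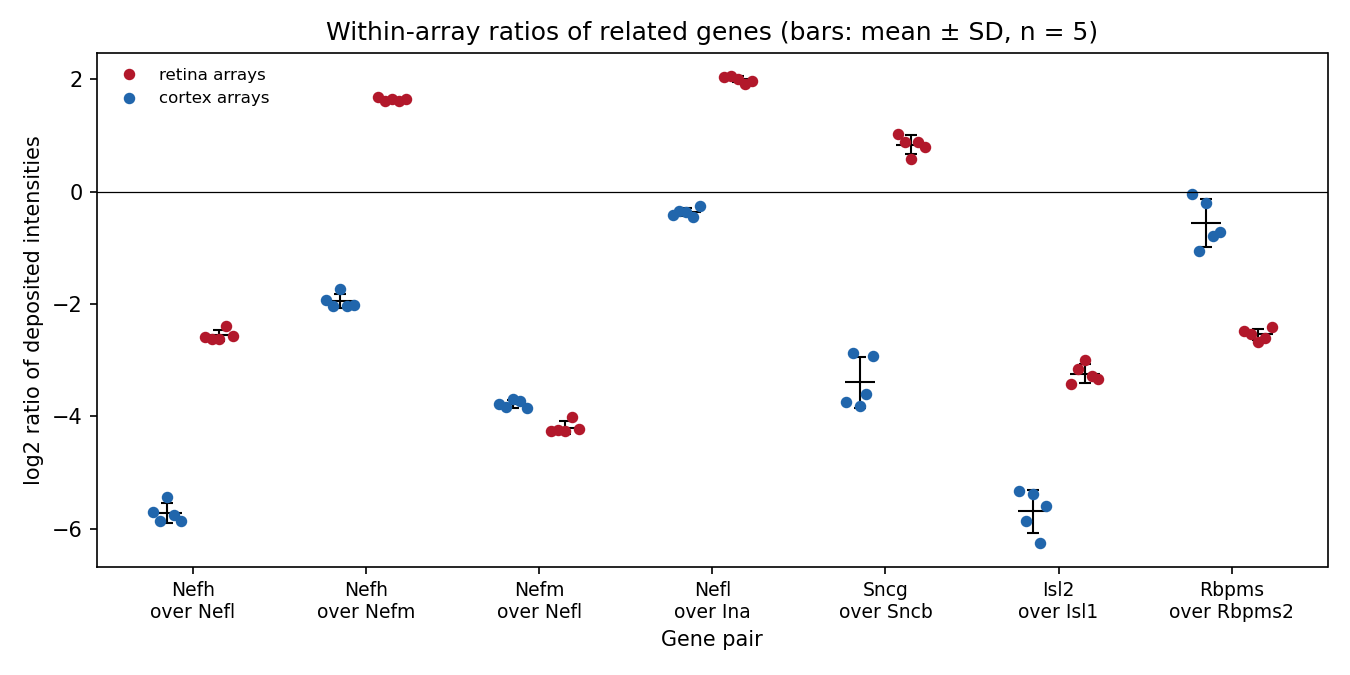
log2 ratio of the deposited intensities of gene pairs (horizontal axis) within each retina array (red) and cortex array (blue), with mean ± SD over 5 arrays. Nefh rose over Nefl and Nefm in retina by 3.17 and 3.59, while Nefm over Nefl moved by -0.42 and Rbpms over Rbpms2 by -1.98.

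Other intermediate filament genes showed no common direction. Of 11 measured, 1 was higher in retina, 2 were lower and 8 were not called; the median was 0.27. These shares, 9.09% higher and 18.2% lower, stand beside 12.1% and 13.3% of all probes. Of the 8 not called, Des, Bfsp1 and Krt19 lay below the olfactory receptor line in both tissues, so nothing can be read from them. Krt8 (0.77), Synm (0.63), Vim (0.32) and Lmnb2 (-0.54) passed by adjusted p and missed the 2-fold minimum. The 2 that were lower were Ina and Lmna, which encodes the A-type nuclear lamins (-1.27, SE 0.073). The 1 that was higher was Krt18, a keratin gene of simple epithelia, at 15.73 ± 0.10 in retina against 10.57 ± 0.50 in cortex (SD, n = 5), differing by 5.17 (SE 0.17, limma, adjusted p = 1.04e-13), with the cortex mean below the olfactory receptor line.

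Sncg had the largest difference of the set. It encodes gamma-synuclein, a small cytosolic protein of the synuclein family that is abundant in ganglion cells. Its probe (796589) stood at 15.25, 15.11, 14.86, 15.14 and 14.94 on the retina arrays and at 8.31, 9.14, 8.11, 8.19 and 8.64 on the cortex arrays. All retina arrays were bright and close together, and all cortex arrays were in the range of the olfactory receptor probes and spread over 1.03 units. The difference was 6.58 (SE 0.17, 95% interval 6.23 to 6.94, limma, adjusted p = 2.98e-15), which ranked 101 toward retina among all probes. In deposited units this was 25869 to 34445 against 316 to 653. Because the cortex signal was not shown to lie above background, the 95.9-fold difference is set in part by dim values.

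The paralogue Sncb, which encodes beta-synuclein of presynaptic terminals, was higher in retina as well, at 14.24 ± 0.06 against 11.86 ± 0.21 (SD, n = 5), differing by 2.37 (SE 0.09). The ratio of Sncg to Sncb was 1.03, 0.88, 0.57, 0.88 and 0.79 on the retina arrays and -3.75, -2.88, -3.82, -3.61 and -2.92 on the cortex arrays. The shift was 4.22, or 18.7-fold (exact permutation p = 0.00794), so the RNA of Sncg differed by more than that of Sncb. The cortex mean of Sncg lay below the olfactory receptor line, so the size of this shift rests in part on dim signal.

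Isl2, a LIM-homeodomain transcription factor gene of ganglion cells, differed to about the same degree as Nefh. Probe 631404 stood at 12.70, 12.93, 13.19, 13.02 and 13.05 on the retina arrays and at 8.79, 8.55, 8.78, 8.12 and 8.65 on the cortex arrays. The first retina array was the lowest of its tissue and still far above every cortex array. The difference was 4.40 (SE 0.17, 95% interval 4.03 to 4.77, a 21.1-fold difference, limma, adjusted p = 9.86e-13). The cortex values were again as dim as olfactory receptor probes, so the fold is set in part by dim signal. The order of Isl2 against Nefh (4.37) cannot be told. With an offset of 100 before log2, Isl2 was at 4.08 and Nefh at 4.32.

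Isl1, its close relative, which retinal bipolar and amacrine cells also use, was at 16.21 ± 0.13 in retina against 14.29 ± 0.10 in cortex (SD, n = 5), differing by 1.92 (SE 0.066). On the retina arrays the ratio of Isl2 to Isl1 was -3.43, -3.15, -3.00, -3.29 and -3.34, and on the cortex arrays -5.33, -5.87, -5.38, -6.26 and -5.60. It shifted toward Isl2 in retina by 2.45, or 5.46-fold. The cortex mean of Isl2 lay below the olfactory receptor line, so the size of this shift rests in part on dim signal.

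Of the measured members, only Sncg, Isl2 and Ebf1 had a promoter among the RefSeq sequences used here (GRCm38.p6). Nefh, with a difference of 4.37, had none. Of the genes with a promoter, Sncg and Isl2 had the larger differences. The 250 bases before the starts of Sncg and Isl2 are shown so that their letters can be compared. Capitals mark matches on either strand to 5 short motifs: TGACGTCA (the cyclic AMP response element), CCAAT (a common proximal element), GGGCGG (the GC box), CANNTG (the E-box) and TAATTA (a homeodomain core).
Sncg, chr14:34374670-34374919, minus strand: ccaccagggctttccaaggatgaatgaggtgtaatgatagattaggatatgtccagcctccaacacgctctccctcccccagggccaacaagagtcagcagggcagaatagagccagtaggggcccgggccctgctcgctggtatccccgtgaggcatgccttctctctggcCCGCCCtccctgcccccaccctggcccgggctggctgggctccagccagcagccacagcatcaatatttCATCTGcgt
Isl2, chr9:55540899-55541148, plus strand: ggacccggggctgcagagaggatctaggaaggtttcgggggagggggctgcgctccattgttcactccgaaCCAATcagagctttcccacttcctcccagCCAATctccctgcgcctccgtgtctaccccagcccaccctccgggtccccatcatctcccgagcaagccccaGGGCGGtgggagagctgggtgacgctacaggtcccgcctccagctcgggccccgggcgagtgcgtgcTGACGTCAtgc

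Both windows are rich in G and C, at 61.6% for Sncg and 66.8% for Isl2, against a median of 52.4% over 32851 promoter windows of the same length. Each held 1 GC box, which in both began 78 bases before the start and which 32.7% of all windows hold. Sncg held 1 E-box, 9 bases before the start, as 66.2% of windows do. Isl2 held 2 CCAAT matches (33.8% of windows hold any) and 1 TGACGTCA, 11 bases before the start, which 1.55% of windows hold. TAATTA, held by 4.84% of windows, was in neither, and no match overlapped a match of another motif. Of the 10 listed genes 5 had such a window. Among them, Ebf1 had 2 starts, with no match to any of the 5 motifs before 1 of them and a single E-box before the other. A match describes letters and not a bound site.

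Rbpms encodes an RNA-binding protein that is widely used to label ganglion cell bodies. Its probe (905976) stood at 12.82, 13.01, 12.80, 12.85 and 12.88 on the retina arrays and at 11.03, 10.09, 10.81, 10.13 and 10.68 on the cortex arrays. The retina arrays were within 0.20 units of each other, whereas the cortex arrays were spread over 0.94, and 2 of the 5 cortex arrays lay above the olfactory receptor line. The difference was 2.32 (SE 0.16, 95% interval 1.98 to 2.67, limma, adjusted p = 1.83e-09).

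The related gene Rbpms2 was higher in retina too. It was at 15.41 ± 0.10 in retina against 11.13 ± 0.19 in cortex (SD, n = 5), differing by 4.29 (SE 0.085, limma, adjusted p = 1.32e-16). The ratio of Rbpms to Rbpms2 was -2.48, -2.53, -2.67, -2.60 and -2.42 on the retina arrays and -0.04, -1.05, -0.20, -0.80 and -0.72 on the cortex arrays. The shift was -1.98 (exact permutation p = 0.00794), toward Rbpms2 in retina. The cortex mean of Rbpms lay below the olfactory receptor line, so the size of this shift rests in part on dim signal, and which of both genes differed by more cannot be told.

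Thy1, a surface glycoprotein gene of ganglion cells and of many other neurons, was nearly as high in cortex. Probe 544812 stood at 12.18, 11.95, 12.22, 12.01 and 11.85 on the retina arrays and at 11.46, 11.14, 11.58, 11.34 and 11.05 on the cortex arrays. The difference of 0.73 (SE 0.12, 95% interval 0.46 to 0.99, limma, adjusted p = 9.59e-05) stayed under 2-fold over its whole interval. Without normalization it was 0.28 and no longer passed the test (limma, adjusted p = 0.089), with deposited values of 3277 to 4099 in retina and 2587 to 3630 in cortex.

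Ebf1, an early B-cell factor gene that is active in several neuron types, was the member nearest to equality. Probe 656780 stood at 13.39, 13.29, 13.23, 13.29 and 13.37 on the retina arrays and at 13.07, 13.07, 12.93, 13.04 and 13.03 on the cortex arrays. The difference was 0.29 (SE 0.06, 95% interval 0.16 to 0.41, limma, adjusted p = 0.000684), and it turned to -0.10 (SE 0.077, limma, adjusted p = 0.314) without normalization. No direction can be given for Ebf1, since the 8265 to 9758 deposited units in retina overlapped the 9090 to 9987 in cortex. Its paralogue Ebf2 was lower in retina, at 8.34 ± 0.83 against 9.83 ± 0.51 (SD, n = 5), differing by -1.49 (SE 0.41, limma, adjusted p = 0.00555), with both tissues below the olfactory receptor line.

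**Figure D3:**
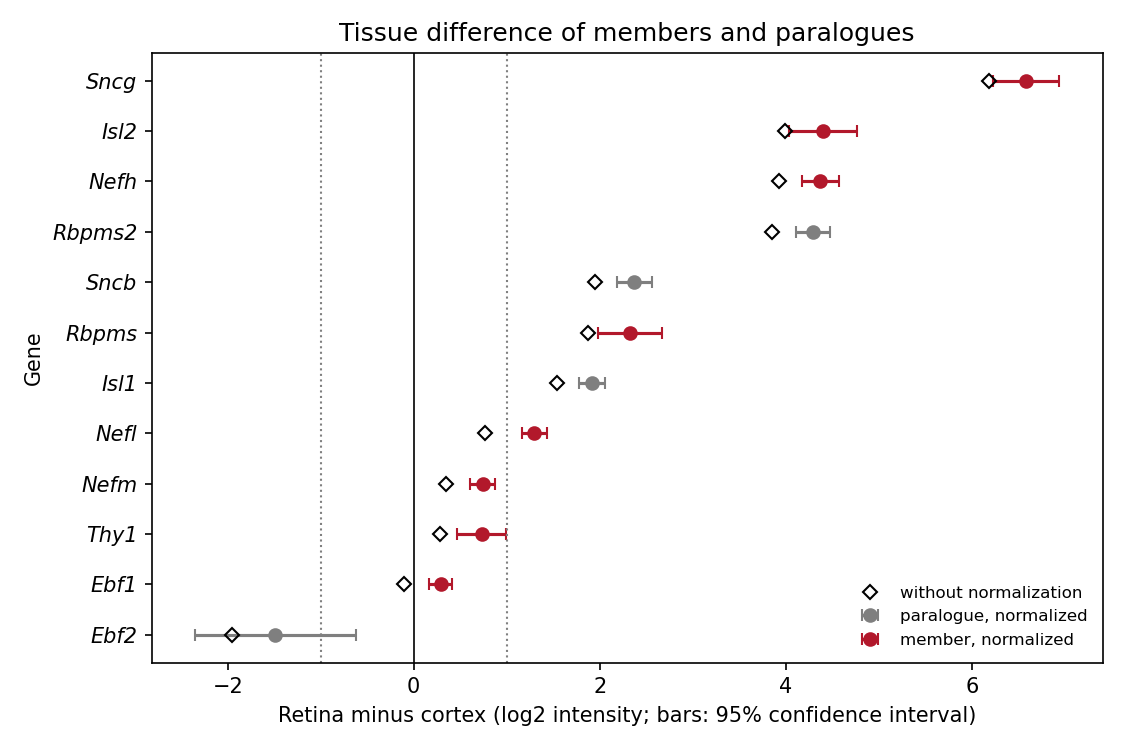
Retina minus cortex on the log2 scale (horizontal axis) for the 8 members (red) and their 4 measured paralogues (grey), with 95% confidence intervals from limma, and the same difference without normalization (diamonds); dotted lines mark 2-fold. Sncg leads at 6.58, Nefl falls from 1.29 to 0.77 without normalization, and Ebf1 moves from 0.29 to -0.10.

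Repeat arrays of these genes were close together, but their SDs were not compared with probes of like brightness. Of the 16 SDs (8 genes in each of 2 tissues), 2 were above the median SD of all probes, which was 0.33 in retina and 0.28 in cortex. These were the cortex SDs of Sncg and Rbpms, both 0.42, and both cortex means lay below the olfactory receptor line. In retina the SDs ran from 0.07 for Ebf1 to 0.18 for Isl2.

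Genes whose profile over the 10 arrays was most like that of a member were sought among 13832 other named genes, by the root mean square difference of log2 values after each probe's mean was removed. Nearest to Sncg were Sh2d1a (0.164), Gabrr2 (0.218), which encodes a GABA receptor subunit of the rho class, and Sebox (0.225), with differences between tissues of 6.79, 6.33 and 6.53. Nearest to Ebf1, the member with the smallest difference, were Snx10 (0.0382), Atp6v0d1 (0.0518) and Rad21 (0.0606), with differences of 0.31, 0.32 and 0.24. With only 2 tissues, this likeness rests mainly on the size of the tissue difference.

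Other genes used for ganglion cells or their subtypes were divided. Of 25 measured, 9 were higher in retina (36%), 9 were lower (36%) and 7 were not called; the median was 0.13, beside 12.1% and 13.3% of all probes and a median of -0.01. Cartpt, which encodes a neuropeptide precursor found in direction-selective ganglion cells, was higher by 6.07 (SE 0.14, 17.00 ± 0.13 against 10.93 ± 0.39, SD, n = 5). Chrna6, a nicotinic acetylcholine receptor subunit gene, was higher by 5.69 (SE 0.14). The growth cone gene Gap43, which growing axons of any neuron use, was lower, at 13.85 ± 0.08 in retina against 18.34 ± 0.10 in cortex, differing by -4.49 (SE 0.055, limma, adjusted p = 5.37e-19). Foxp2, a transcription factor gene of some ganglion cells and of deep cortical layers, was lower too, at -4.09 (SE 0.23), with a retina mean below the olfactory receptor line, so its order against Gap43 cannot be told.

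Among the rest, chosen after their values were seen, Slc17a6, the vesicular glutamate transporter gene of ganglion cells, was at -0.14 (SE 0.059). The melanopsin gene Opn4 (0.76, SE 0.45) and Eomes (-0.07, SE 0.23), both of light-sensitive ganglion cells, were below the olfactory receptor line in both tissues. So were Atoh7, Irx2 and Tbx20, and nothing can be read from the absence of a call there. Kcng4, among the 9 higher (2.00, SE 0.35), was as dim in both tissues. Besides Gap43 and Foxp2, the lower genes were Stmn2 (-3.47), Tubb3 (-2.74), Satb1 (-2.47), Elavl4 (-1.94), Uchl1 (-1.75), Adcyap1 (-1.48) and Mmp17 (-1.19). The retina mean of Mmp17 lay below the olfactory receptor line. Of the members 0 of 8, and of this list 9 of 25, were lower in retina, beside 13.3% of all probes. The contrast of members and list was not tested.

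Genes of the axon and its initial segment were divided too. Of 18 measured, 4 were higher in retina (22.2%), 6 were lower (33.3%) and 8 were not called, beside 12.1% and 13.3% of all probes. The median of the list was -0.28. Kcnab2, a potassium channel subunit gene, was at 13.99 ± 0.12 in retina against 10.82 ± 0.11 in cortex (SD, n = 5), differing by 3.17 (SE 0.084). Dnm1, the neuronal dynamin gene, was higher by 1.93 (SE 0.089), as were the axonal potassium channel genes Kcna2 (1.69, SE 0.34, dim in both tissues, with overlapping arrays) and Kcna1 (1.57, SE 0.1). The cell adhesion gene Cntn2 was lower, at 9.05 ± 0.69 against 10.75 ± 0.23, differing by -1.70 (SE 0.31). Its retina mean was below the olfactory receptor line and its cortex mean at that line. The other lower genes were above the line in both tissues. They were Kif3c (-1.59, SE 0.053), Map1b (-1.45, SE 0.045), Nrcam (-1.28, SE 0.049), Cntn1 (-1.22, SE 0.065) and Kif5a (-1.20, SE 0.11).

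Amacrine cells share the ganglion cell layer and some of these markers. Of 17 measured amacrine cell genes, 11 were higher in retina (64.7%), 1 was lower (5.88%) and 5 were not called. Over all probes the shares were 12.1% and 13.3%. The median of the list was 1.58. Pax6 (4.33, SE 0.09), Chat (3.63, SE 0.29), Tfap2b (3.56, SE 0.085) and Calb2 (2.97, SE 0.06) had the largest estimates. The cortex means of Chat and Gjd2 lay below the olfactory receptor line. Slc17a8 (1.81, SE 0.34), among the 11 higher, and Ptf1a, not called, lay below it in both tissues. The others not called were Slc18a3 (0.70), Th (0.02), Gad2 (-0.14) and Meis2 (-0.38). Neurod2, also a cortical neuron gene, was lower (-2.91, SE 0.099). The summed deposited intensity of the list ran from 885144 to 1072824 on retina arrays and from 690817 to 786296 on cortex arrays.

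Genes of tissues next to the retina also moved with the comparison. Of 12 measured lens genes 9 were higher (75%), with a summed intensity of 171572 to 199182 in retina and 16674 to 19730 in cortex. All 9 were crystallin genes. Mip (0.03), Gja3 (0.28) and Bfsp1 (-0.58) were not called. Their means lay below the olfactory receptor line in both tissues, so nothing can be read from them. Of the 12 genes, 11 had a cortex mean below that line. Whether the retina pool held lens tissue was not tested. Of 11 retinal pigment epithelium genes 7 were higher (63.6%) and 1 was lower (9.09%), beside 12.1% and 13.3% of all probes. Rgr, Rpe65, Rrh and Dct were higher by 7.29, 6.81, 5.86 and 5.21, with cortex means below the olfactory receptor line. Tyr (0.49), Best1 (-0.14) and Mitf (-0.35) were not called. They lay below that line in both tissues, as did Pmel (2.14), which was among the 7 higher. The summed intensity of the list was lower in retina, at 588721 to 675315 against 1022924 to 1184459. The cortex sum rests mainly on the 1 lower gene, Ttr, at 18.34 ± 0.05 in retina against 19.73 ± 0.08 in cortex (SD, n = 5). Of 7 genes of optic nerve glia and myelin 3 were lower (42.9%, against 13.3% of all probes) and 4 were not called. Their sums were 5472 to 6536 in retina and 17113 to 19383 in cortex. Mog, Mag, Cnp and Cldn11 lay below the olfactory receptor line in both tissues, and Olig1 in retina, so little can be read from these genes. The sums of the other ganglion cell genes (519225 to 632994 against 3520887 to 3898640) and of the axon genes (564439 to 695416 against 1325083 to 1401436) were lower in retina as well; a sum rests on the brightest probes of a list. The part of these cells in the values of Sncg, Nefh and the other members was not tested.

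**Figure D4:**
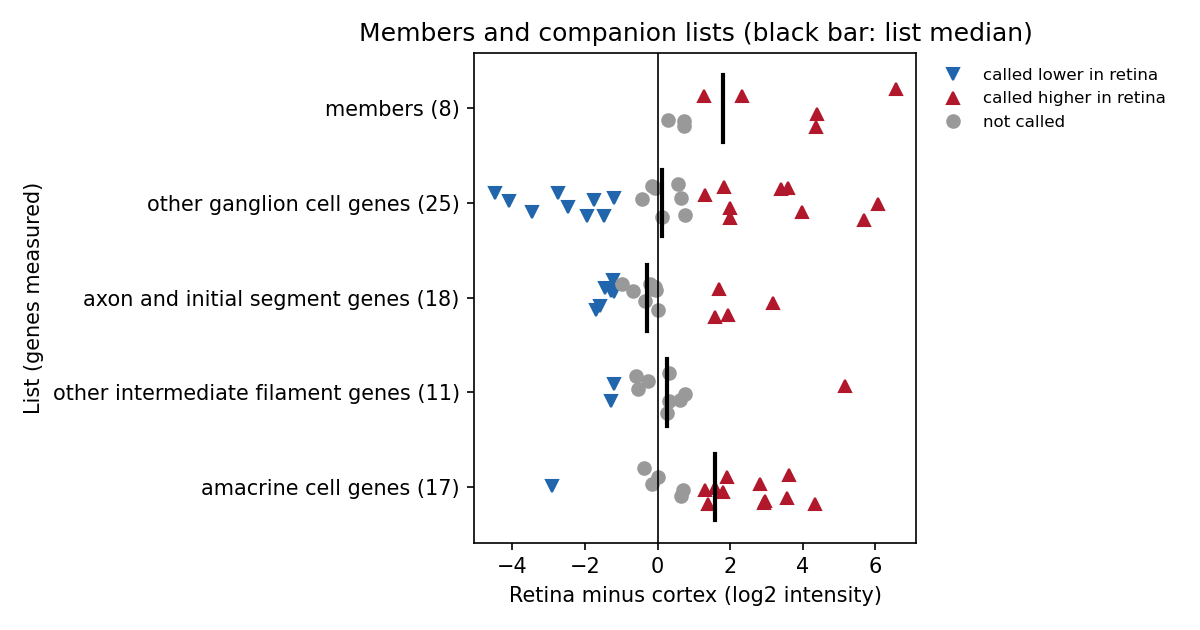
Retina minus cortex on the log2 scale (horizontal axis) for each measured gene of the member set and 4 companion lists (vertical axis, number of genes in brackets), with triangles for called genes, grey circles for genes not called and a black bar at the list median. The members lie at or above 0.29 (Ebf1 at -0.10 without normalization), whereas the other ganglion cell genes run from -4.49 to 6.07.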

How the data were processed

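Per the labels' protocols, total RNA was extracted with TRIzol and turned into cRNA carrying digoxigenin, which is read by chemiluminescence. The authors deposited linear intensity values for 33012 probes on 10 arrays, with 0 values at or below 0. How the deposited intensity values were background-corrected, normalized or called as detected is not given in the sources used here. Groups and replicate numbers came from the sample titles.

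Intensities were put on the log2 scale and quantile-normalized, because array medians spanned 0.68 log2 units, over a tolerance of 0.1. Retina was compared with cortex over all probes with limma 3.58.1 in R 4.3.3 (lmFit, eBayes with intensity trend, 2-sided). Of the probes, 14411 had 1 gene symbol in the platform annotation, 247 several and 18354 none listed. In lists, the probe with the highest mean stood for a gene. Members and lists were chosen with earlier results of these data known. Named from each list were the paralogues, or up to 4 called genes with the largest differences and any called gene against the direction of most, plus the 3 genes nearest to the members at either end. Other genes were chosen after their values were seen. The scripts were tested on simulated data. The number of arrays limits the precision. Alternatives were no normalization, median centring, cyclic loess, an offset of 100, a filter on dim probes, no intensity trend, no minimum difference, an exact permutation test, the replicate number as a block, and leaving out each array.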

Additional observations from a re-analysis of the deposited data

Results flagged for a closer look

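For 29 named genes, the 5 arrays of each tissue were examined for a single array far from the others, which gave 58 groups. Chance flags about 5% of such groups, and 2 were found. The fourth cortex array read 16.94 for Nefl, where its 4 companions read 17.11 to 17.15. The fifth cortex array read 10.63 for Kcnab2, where its companions read 10.82 to 10.89.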

How the results depend on the processing

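With no minimum difference, 8 members were higher, all probes called were 7441 higher and 8263 lower, 4 other intermediate filament genes were higher, and 10 axon genes and 2 amacrine cell genes were lower. Without normalization 2474 probes were higher and 7621 lower, and 4 members were higher, since Nefl (0.77) fell under 2-fold. With dim probes left out, 0 paralogues were lower, because Ebf2 was removed. On leaving out each array in turn, the members called stayed at 5 higher and 0 lower, Nefl ran from 1.24 to 1.34 and Sncg from 6.49 to 6.75. A pairing of the arrays by replicate number was neither shown nor tested. Same-numbered deviations correlated at -0.02 to 0.029, and 3 of 5 retina arrays correlated best with their own number. With the replicate number as a block, limma called 4000 probes higher and 4398 lower and changed no call of a member. The paired sign-flip test of the 7 ratios kept their shifts (Nefh over Nefl 3.17, Nefh over Nefm 3.59, Nefm over Nefl -0.42, Nefl over Ina 2.37, Sncg over Sncb 4.22, Isl2 over Isl1 2.45, Rbpms over Rbpms2 -1.98), but its smallest possible exact p is 0.0625. Dim cortex signal limits the folds of Sncg, Isl2 and Rbpms.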

Other observations

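Partner genes, chosen after their values were seen, differed in how alike they were. The nicotinic receptor subunit genes Chrna6 and Chrnb3, whose products join in 1 receptor, were both higher in retina, by 5.69 (SE 0.14) and 3.40 (SE 0.27), each with a cortex mean below the olfactory receptor line. The keratin genes Krt18 and Krt8, whose products pair in 1 filament, stood at 5.17 (SE 0.17) and 0.77 (SE 0.11). Whether the probe of Krt18 reads only that gene was not tested.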
